A study of Mus musculus with 6 samples.

Results

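The comparison here is between the responses of a cultured blood endothelial cell (BEC) line and a cultured lymphatic endothelial cell (LEC) line to overexpression (OE) of Dot1l. For each gene, the log2 ratio of OE-BECs over Cont BECs was taken, and the log2 ratio of OE-LECs over Cont LECs was subtracted from it. The result is called D. A positive D means that the level in OE-BECs, relative to Cont BECs, was higher than the level in OE-LECs relative to Cont LECs, and a negative D means the reverse. Levels are counts per 1000000 reads (CPM) with the ribosomal RNA precursor gene Rn45s left out of the library total, and 1 CPM was added before each ratio. Genes entered when they had at least 50 reads in the 2 BEC libraries together and at least 50 in the 2 LEC libraries together, which 11024 of the 24421 genes in the table did. Among the 17820 genes with a read in any of the 4 libraries, 6796 had too few reads for D.

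The Cont BEC and OE-BEC libraries came from cultured cells of the mouse embryonic yolk sac, and the Cont LEC and OE-LEC libraries from cultured mouse cells of the embryonic dermis. The study's methods state no genotype for either culture. OE cells received a lentivirus with a catalytically dead Cas9 fused to the activator VP64, guides to the Dot1l promoter and a green fluorescent protein. Cont cells received empty lentivirus, so the cargo of the vector and the level of Dot1l differ together and cannot be told apart. Cells positive for the fluorescent protein were sorted, and 2 to 3 flasks were pooled for each library. Each condition has 1 library and each cell type is 1 line. No value can therefore be set against a spread between replicates, and no test of D was possible. Each D is given with a 95% interval that covers counting error only, and a gene is called where D or a ratio is 3-fold or more, which is 1.58 on the log2 scale.

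DOT1L is the enzyme that methylates lysine 79 of histone H3, a mark found along the bodies of transcribed genes. Interferon stimulated genes are switched on when type I interferon binds its receptor on the cell surface and the kinases JAK1 and TYK2 send the signal on to a complex that holds STAT2 and IRF9. This complex binds the interferon-stimulated response element (ISRE) in promoters, and the proteins made include sensors of viral RNA and DNA, antiviral enzymes, GTPases and the machinery of MHC class I antigen presentation. Endothelial cells respond to interferon in this way, and BECs and LECs share most endothelial genes but differ in growth factor receptors, junctions and transcription factors such as PROX1, which sets the lymphatic fate.

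The libraries held 12416781 to 31012849 reads outside Rn45s, so that 1 CPM was 12.4 to 31.0 reads. The lines stood apart in RNA other than polyadenylated messengers. Rn45s took 5.91% (Cont) and 10.9% (OE) of reads in the BEC line and 0.0534% (Cont) and 0.0632% (OE) in the LEC line, and the 68 replication-dependent histone genes summed to 3132 and 4123 CPM in the BEC libraries but to 6.70 and 7.32 CPM in the LEC libraries. This difference between the lines runs with the line in each value below and cannot be told apart from it, although D sets each OE library against the Cont library of its own line. The endothelial genes Pecam1 and Cdh5 were abundant in all 4 libraries (Pecam1 998 to 1188 CPM). Prox1 had 0 reads in each of the 4 libraries, which allows up to 0.115 CPM in Cont LECs, and Pdpn had at most 1 read, so these 2 lymphatic markers do not separate the libraries labelled LEC from those labelled BEC. The list of 19 lymphatic genes went against the labels. Of its 11 genes with enough reads, 10 were higher in Cont BECs than in Cont LECs, with a median gap of 0.52 on the log2 scale, and none of the other 8, Prox1 and Pdpn included, had more than 5 reads in any library. Cont BECs were also above Cont LECs for 19 of 28 blood endothelial genes (median gap 0.34) and for 43.6% of all genes. Higher levels in Cont BECs were thus not particular to the lymphatic list. The libraries are called LEC here as labelled. The 1 exception among the 11 lymphatic genes, Lyve1, a hyaluronan receptor of lymphatic endothelium, had 642 (Cont) and 1191 CPM (OE) in BECs and 1999 (Cont) and 1964 CPM (OE) in LECs. Of 15 macrophage, 14 fibroblast and pericyte and 13 keratinocyte markers, 1, 2 and 1 had enough reads for D, and the 3 lists summed to 38.8 to 94.8, 5.41 to 24.4 and 7.09 to 9.77 CPM over the 4 libraries, with Cd68 giving most of the first. Adgre1, C1qa, Krt5, Krt14 and Rgs5 had 0 reads in all 4 libraries.

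Dot1l, on chromosome 10 of mm10 from 80755206 to 80795461, was more abundant in both OE libraries. It had 1972 (Cont) and 4208 reads (OE) in BECs and 2490 (Cont) and 6720 reads (OE) in LECs. These are 119, 339, 95.4 and 217 CPM, a log2 ratio of 1.51 in BECs and 1.18 in LECs. D of Dot1l was 0.33 (interval 0.23 to 0.43), so the targeted gene itself was 1.26-fold further up in the BEC line. The gene overlaps Gm17151, whose reads could not be separated from it here. In bulk libraries a smaller share of cells with a transcript and less of it per cell cannot be told apart.

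Over all 11024 genes D had a median of 0.01 and a standard deviation of 0.476, and it lay within 0.5 of 0 for 8605 genes (78.1%). It was above 0 for 5683 genes (51.6%) and below 0 for 5341 (48.4%), the shares against which the counts of each list can be read. Cont BECs were above Cont LECs for 4803 genes (43.6%), OE-LECs were above Cont BECs for 6157 (55.9%), and 3375 genes (30.6%) were lower in both OE libraries. Ratios were spread more widely in BECs (standard deviation 0.511) than in LECs (0.319). Across genes the 2 ratios had a Pearson correlation of 0.418 and a Spearman correlation of 0.312 (n = 11024 genes, which are not independent replicates, and the lines share no library). The counting interval of D excluded 0 for 6000 genes (54.4%), and the median distance from D to its limits was 0.214. Among the 2756 genes with the fewest reads the standard deviation of D was 0.563, and among the 2756 with the most it was 0.411. Median D was 0.0504 in the 2658 genes with the shortest transcripts and −0.032 in the 2657 with the longest. The 70 genes just inside the minimum, with 50 to 54 reads in the pair with fewer reads, had D from −1.20 to 1.42, and the 107 genes just outside, with 45 to 49 reads, from −2.55 to 1.43.

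**Figure D1:**
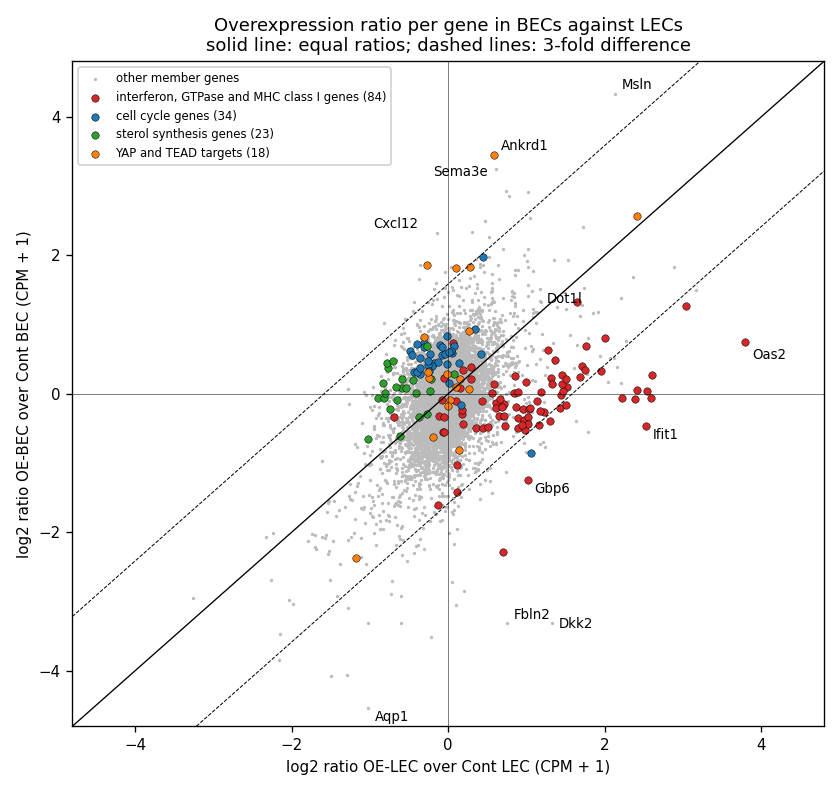
Log2 ratio of OE over Cont for each gene in LECs (horizontal axis) and BECs (vertical axis), 1 point per gene, with genes of 4 groups coloured. Of the 84 interferon, GTPase and MHC class I genes, 79 lie to the right of the solid line of equal ratios, and Dkk2, Fbln2, Aqp1, Ankrd1 and Sema3e lie far from it because of their ratio in BECs.

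D was 3-fold or more up for 23 genes (0.209% of those compared) and 3-fold or more down for 80 genes (0.726%). The high and low ends differed in which line had the larger ratio. For all 23 genes with high D the larger ratio, up or down, was that of BECs. For the 80 genes with low D, the larger ratio was that of BECs for 50 genes and that of LECs for 30. These counts depend on the amount added before the log, since 54 genes were up with 0.1 CPM and 10 with 5 CPM. Within single lines, 50 genes (0.454%) were 3-fold or more higher in OE-BECs than in Cont BECs and 117 genes (1.06%) lower, against 41 genes higher (0.372%) and 15 lower (0.136%) in OE-LECs.

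At 3-fold the lines shared 5 genes that were higher under OE (Axl, Msln, Pyhin1, S100a4 and Sema3c) and 14 that were lower, among them Vwf, Kit, Sox18 and Stab2. Another 45 genes were higher in OE-BECs only, 103 lower in OE-BECs only, 36 higher in OE-LECs only and 1, Gsta3, lower in OE-LECs only. No gene was called in opposite directions at 3-fold. At 2-fold, Dkk2 and Gbp6 were lower in OE-BECs and higher in OE-LECs, and no gene was the reverse. The genes of these sets were named after their values were seen.

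Of the 36 genes called higher in OE-LECs only (0.327% of all genes), 16 belonged to the interferon, GTPase and MHC class I lists, which hold 84 of the 11024 genes (0.762%). D was below 0 for 79 of the 84, against 48.4% of all genes. In the order of the pathway, the ligands were almost absent. Of 21 interferon genes in the table, Ifnb1 had 0 reads in both BEC libraries and 1 (Cont) and 5 reads (OE) in LECs, Ifna5 and Ifna13 had 1 read each, and 17 had none. Ifne, interferon epsilon, was the exception with 317 (Cont) and 67 reads (OE) in BECs and 954 (Cont) and 558 reads (OE) in LECs, lower in both OE libraries.

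The receptor and signalling genes had a median D of −0.40 over 13 genes with enough reads, and 12 of the 13 were below 0. The receptor chains Ifnar1 and Ifnar2 had D of −0.21 and −0.28. Stat2 and Irf9, which bind the ISRE in the same complex, had D of −1.19 and −0.88.

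Irf7, the transcription factor that amplifies the interferon response, had 66.6 (Cont) and 80.8 CPM (OE) in BECs and 29.3 (Cont) and 183 CPM (OE) in LECs. OE-LECs were the highest of the 4 libraries and Cont LECs the lowest, with log2 ratios of 0.27 in BECs and 2.60 in LECs and a D of −2.33 (interval −2.49 to −2.17). Irf7 lies on chromosome 7 of mm10 from 141262706 to 141266481 and overlaps Phrf1. Usp18, which ends signalling at the receptor, had 1286 and 1213 reads in the BEC libraries and 596 and 2841 in the LEC libraries (D −1.62).

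Of 35 antiviral effector genes with enough reads, 33 had D below 0, the counting interval lay below 0 for 32, and 9 were called, against 0.726% of all genes. Median D was −1.24, from a median log2 ratio of 0.02 in BECs and 1.19 in LECs. The summed level of all 37 listed effectors was 3391 (Cont) and 3407 CPM (OE) in BECs and 2068 (Cont) and 4477 CPM (OE) in LECs. Cont BECs were above Cont LECs for 30 of the 35 genes, and OE-LECs were above Cont BECs for 22.

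Oas2, an enzyme that makes 2'-5' oligoadenylates when double-stranded RNA activates it, had 28.2 (Cont) and 48.0 CPM (OE) in BECs and 6.63 (Cont) and 105 CPM (OE) in LECs. It was higher in both OE libraries, with log2 ratios of 0.75 and 3.80, and its D was −3.05 (interval −3.31 to −2.79). Oas2 lies on chromosome 5 from 120730333 to 120749853.

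Ifit1, which binds viral RNA that lacks a host cap, had 105 (Cont) and 75.7 CPM (OE) in BECs and 12.9 (Cont) and 79.4 CPM (OE) in LECs. The level in OE-LECs was close to that in OE-BECs and below that in Cont BECs. Its log2 ratios were −0.46 and 2.53, and its D was −2.99 (interval −3.18 to −2.80). Ifit1 lies on chromosome 19 from 34640871 to 34650009. Ifit3 on the same chromosome (34583531 to 34588731) and Ifi44 on chromosome 3 had log2 ratios near 0 in BECs (0.05 and −0.07) and of 2.54 and 2.60 in LECs.

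Ifi27l2a departed from this pattern, since most of its D of −2.99 came from BECs. It had 52.5 (Cont) and 9.99 CPM (OE) in BECs and 8.85 (Cont) and 15.1 CPM (OE) in LECs. Ifi27 and Samhd1, with D of 0.35 and 0.09, were the 2 effectors above 0. Among the sensors of viral nucleic acid, 7 of 8 had D below 0, led by Ifih1, the RNA helicase MDA5, with 1252 and 1002 reads in the BEC libraries, 870 and 3023 in the LEC libraries and a D of −1.42. Aim2, a sensor of DNA in the cytosol, had D of 0.28. Members of the Ifit, Oas, Ifi200 and Gbp families are close copies, and reads that match several of them could have been split by the counting, so values of single members are less certain than those of the group.

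The promoters of these genes were read for the ISRE, searched on both strands as the 4 letters GAAA, any 2 letters and GAAA again, in the 250 bases before and 50 bases after each start site. Promoter sequences came from RefSeq on GRCm38.p6 and were found for 8482 of the 11024 genes. At least 1 match was present for 311 of the 8482 genes (3.67%). It was present for 11 of the 23 genes (47.8%) with low D and the larger ratio in LECs, 2 of the 36 (5.56%) with low D and the larger ratio in BECs, and 0 of the 16 with high D. By list, 11 of 26 effectors (42.3%), 8 of 9 GTPases (88.9%) and 3 of 12 MHC class I genes (25%) held it. So did 3 of 5 sensors (60%) and 2 of 11 receptor and signalling genes (18.2%). In lists outside the interferon response it was present for 2 of 13 YAP and TEAD targets (15.4%), 1 of 27 cell cycle genes (3.7%) and 0 of 15 sterol synthesis genes. The following 6 windows of 60 bases are shown because their genes combine a called D with a match. They are written 5′ to 3′ on the strand of the gene, with each full ISRE match in capitals, so that TTTC marks an element on the opposite strand. Isg15 and Oas3 were chosen after their values were seen.
Ifit1, chr19:34640779-34640838, plus strand: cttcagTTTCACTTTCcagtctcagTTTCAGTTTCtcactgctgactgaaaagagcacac
Ifit3, chr19:34583382-34583441, plus strand: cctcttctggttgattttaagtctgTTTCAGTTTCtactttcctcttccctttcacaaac
Isg15, chr4:156200850-156200909, minus strand: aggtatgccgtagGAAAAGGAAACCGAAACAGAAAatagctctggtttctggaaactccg
Oas3, chr5:120777700-120777759, minus strand: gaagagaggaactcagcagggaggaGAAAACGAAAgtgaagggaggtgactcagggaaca
Irgm1, chr11:48871421-48871480, minus strand: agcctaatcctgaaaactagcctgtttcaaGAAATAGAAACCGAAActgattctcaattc
H2-T23, chr17:36032791-36032850, minus strand: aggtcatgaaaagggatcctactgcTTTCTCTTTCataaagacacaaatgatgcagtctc
Ifit1 and Isg15 have several matches within these bases, Oas3 has 1. The window of Ifit3 is identical to that of its neighbour Ifit3b. A match is a description of the letters and not evidence that a factor was bound. The AP-1 motif TGANTCA was present for 4 of 16 genes with high D (25%), 7 of the 23 with low D and the larger ratio in LECs (30.4%), 1 of the 36 with low D and the larger ratio in BECs (2.78%) and 5.89% of all genes.

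The guanylate binding proteins and immunity-related GTPases, which attack the vacuoles of intracellular pathogens, had D below 0 for 14 of 14 genes with enough reads, with a median of −1.47. Here both lines took part. The median log2 ratio was −0.41 in BECs and 1.09 in LECs, and the summed level of all 17 listed genes was 1289 (Cont) and 826 CPM (OE) in BECs and 430.1 (Cont) and 822 CPM (OE) in LECs. Cont BECs were above Cont LECs for 14 of 14, while the summed levels of the 2 OE libraries were nearly equal.

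Gbp6 had 782 (Cont) and 239 reads (OE) in BECs and 243 (Cont) and 616 reads (OE) in LECs, which are 47.0, 19.2, 9.31 and 19.9 CPM. It was lower in OE-BECs and higher in OE-LECs than in the matching Cont library, each by more than 2-fold, and its D was −2.26 (interval −2.55 to −1.98). It lies on chromosome 5 from 105270702 to 105293698 and overlaps Gm43302. Gbp4 and Gbp8 had low D through BECs, with log2 ratios of −1.60 and −1.42 in BECs and −0.12 and 0.11 in LECs. Irgm1, Irgm2 and Igtp had it mainly through LECs, with log2 ratios of 1.43, 1.51 and 1.16 there. Irgm2 and Igtp overlap each other and Gbp8 overlaps Gbp4, and reads of such pairs could not be separated here.

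MHC class I genes had D below 0 for 13 of 14, with a median of −0.95. H2-T23, the nonclassical class I molecule Qa-1, had 272 (Cont) and 151 reads (OE) in BECs and 285 (Cont) and 878 reads (OE) in LECs, and was the only one called (D −1.70, interval −2.03 to −1.37). It overlaps A930015D03Rik. The immunoproteasome subunit Psmb8, the heavy chain H2-K1, the peptide transporter Tap1 and the light chain B2m had D of −1.39, −1.36, −1.26 and −1.05. H2-M3 went the other way, with D of 0.68 (interval 0.21 to 1.15).

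Among the genes with low D and the larger ratio in BECs, Dkk2, a secreted regulator of Wnt signalling on chromosome 3 from 132085292 to 132180304, had the lowest D of all genes. It had 295 (Cont) and 11 reads (OE) in BECs and 10 (Cont) and 77 reads (OE) in LECs, which are 17.7, 0.886, 0.383 and 2.48 CPM. The 2 Cont libraries lay furthest apart and the OE libraries between them. Its D was −4.64 (interval −5.17 to −4.03), and it rests on few reads in 2 of the 4 libraries.

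Fbln2, a matrix protein of elastic fibres and basement membranes on chromosome 6, had 97.8 (Cont) and 9.02 CPM (OE) in BECs and 5.55 (Cont) and 10.03 CPM (OE) in LECs (D −4.05, interval −4.41 to −3.70). Aqp1, the water channel of endothelium, on chromosome 6 from 55336432 to 55348555, had 134 (Cont) and 4.83 CPM (OE) in BECs and 8.35 (Cont) and 3.61 CPM (OE) in LECs. Aqp1 was lower in both OE libraries, with log2 ratios of −4.53 and −1.02, whereas Fbln2 was lower in OE-BECs and higher in OE-LECs. Abca1, which exports cholesterol from cells, and Syt13 likewise had lower levels in both OE libraries, with log2 ratios in BECs of −4.05 and −4.07 and in LECs of −1.29 and −1.50.

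The matrix gene Npnt, a ligand of integrins, had nearly equal levels in the LEC libraries. It had 1712 and 184 reads in the BEC libraries and 1129 and 1387 in the LEC libraries (D −2.76). Aldh1a7, Crisp1 and Plekhs1 had log2 ratios between −0.22 and 0.20 in LECs and D of −3.28, −3.15 and −3.05. The growth factor Igf2 was lower in both OE libraries, with 282 (Cont) and 10 reads (OE) in BECs and 39 (Cont) and 20 reads (OE) in LECs and a D of −2.71. Igf2 overlaps its antisense gene Igf2os and Mir483, and their reads could not be parted here.

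**Figure D2:**
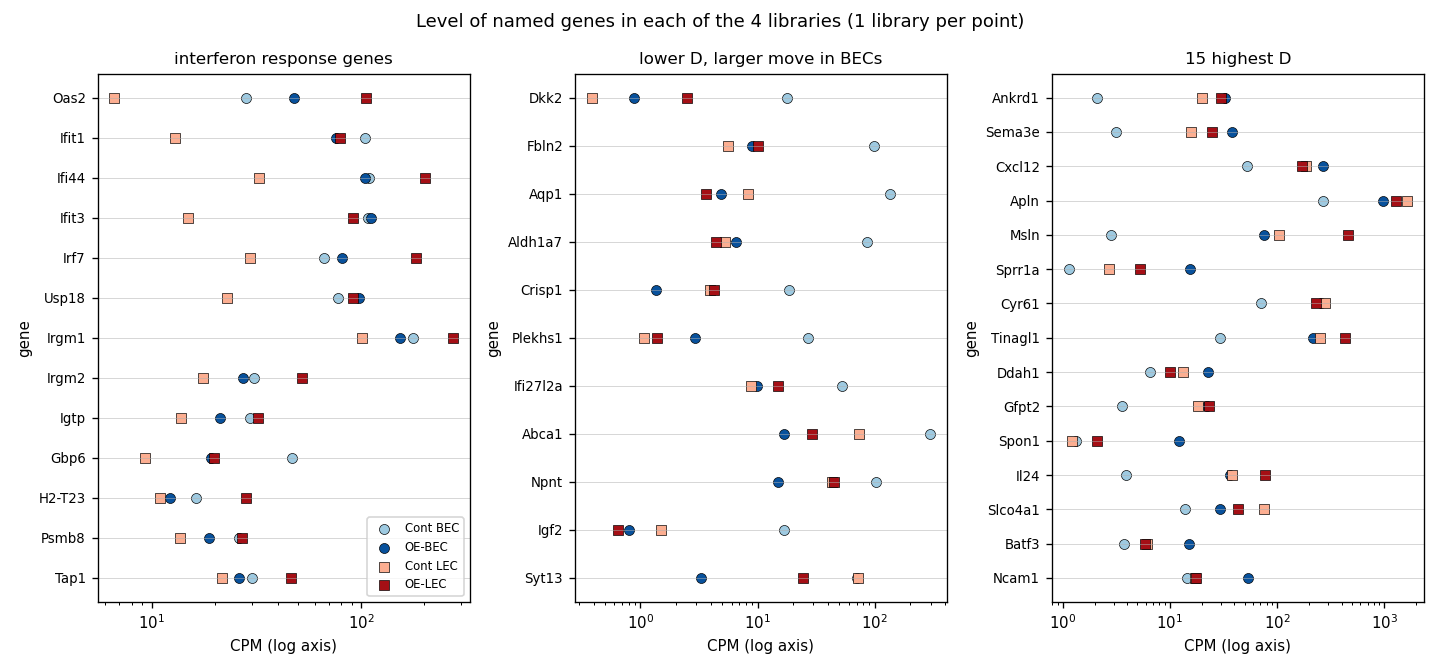
Level in CPM (log axis) of named genes in each of the 4 libraries, 1 point per library. In the left panel Cont LECs are the lowest of the 4 for all 13 interferon response genes, in the middle panel Cont BECs are the highest for every gene except Syt13, and in the right panel Cont BECs are the lowest for every gene except Spon1. All genes shown were named for their D, which the Cont libraries enter, and part of the left panel was then chosen from them by hand. These orders are therefore favoured by the choice. Isg15, an interferon stimulated gene not shown, had 17.4 CPM in Cont LECs and was lowest in OE-BECs (15.9 CPM). In the MHC class I list, Cont BECs were above Cont LECs for only 8 of 14 genes with enough reads.

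At the other end of the range, Ankrd1, a nuclear and sarcomeric ankyrin repeat protein and a known target of YAP and TEAD, had the highest D. It lies on chromosome 19 from 36111961 to 36120099 and had 35 (Cont) and 407 reads (OE) in BECs and 517 (Cont) and 937 reads (OE) in LECs (2.10, 32.8, 19.8 and 30.2 CPM). The 2 OE libraries were close and Cont BECs stood far below the rest, giving log2 ratios of 3.44 and 0.59 and a D of 2.86 (interval 2.46 to 3.25).

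Sema3e, a repulsive guidance cue for vessels that acts through plexin D1, had 52, 473, 409 and 761 reads in the same order and a D of 2.63, with the lower limit at 2.26. Cxcl12, the chemokine ligand of CXCR4, had 52.5 (Cont) and 267 CPM (OE) in BECs and 187 (Cont) and 169.6 CPM (OE) in LECs. OE-BECs were the highest of the 4, and D was 2.47 (interval 2.35 to 2.59), with log2 ratios of 2.33 in BECs and −0.14 in LECs.

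Apln, the peptide apelin made by growing vessel tips, on chromosome X, had 4489 (Cont) and 12191 reads (OE) in BECs and 42534 (Cont) and 39581 reads (OE) in LECs. It was higher in OE-BECs and lower in OE-LECs, and its D was 2.21 (interval 2.16 to 2.27). Adm, the peptide adrenomedullin, had 22.4 (Cont) and 57.4 CPM (OE) in BECs and 98.0 (Cont) and 72.3 CPM (OE) in LECs (D 1.76). Among their receptors, Aplnr had at most 2 reads in any library, and Calcrl, the receptor of adrenomedullin, had a D of −1.47 with 18374, 4946, 12656 and 15046 reads.

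Msln, a surface protein of mesothelium, was the only gene of high D that was called in both lines. It had 47 (Cont) and 945 reads (OE) in BECs and 2750 (Cont) and 14395 reads (OE) in LECs, with log2 ratios of 4.33 and 2.13. The remaining genes among the 15 highest had D from 1.80 to 2.19. They were Sprr1a, a cornified envelope protein, Cyr61, Tinagl1, Ddah1, Gfpt2, Spon1, the cytokine Il24, Slco4a1, Batf3 and Ncam1, and no position is given for Cyr61 because the annotation held no match to this symbol.

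Of the 18 YAP and TEAD targets with enough reads, 3 were called up (Ankrd1, Cyr61 and Amotl2), against 0.209% of all genes, and the median D was 0.22 with 11 above and 7 below 0. Ctgf, which had 961, 2573, 8384 and 12111 reads, fell short of the threshold with a D of 1.54. The list was not uniform. Igfbp3, also a member, had a D of −1.19, and Axl had log2 ratios of 2.57 and 2.41 and a D of 0.15 (interval −0.35 to 0.61). The TEAD motif ACATTCC was present in the promoters of 3 of 13 of these genes (23.1%) and of 3.28% of all genes. By D, it was present for 1 of 16 genes with high D (6.25%) and 1 of 59 with low D (1.69%).

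Chemokines and adhesion molecules had a median D of 0.51 over 13 of 34 genes. Cxcl1, Ccl2 and Csf1 had D of 1.49, 1.46 and 1.26, each with a higher level in OE-BECs and a lower one in OE-LECs. Ccl2 had 2335 and 3007 reads in the BEC libraries and 12515 and 9310 in the LEC libraries. Il33, an alarmin stored in endothelial nuclei, was called down with a D of −1.91 (interval −2.42 to −1.38) and 67, 26, 254 and 737 reads. The leukocyte adhesion molecules Vcam1 and Sele were higher in both OE libraries, with D of 0.62 and 0.46.

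Cell cycle genes had positive D almost throughout. For 32 of 34 genes D was above 0 and for 30 the counting interval lay above 0, with a median D of 0.65 from a median log2 ratio of 0.56 in BECs and −0.12 in LECs. None was called up. Their summed level was 4804 (Cont) and 7968 CPM (OE) in BECs and 8263 (Cont) and 8702 CPM (OE) in LECs, so Cont BECs stood below the other 3 libraries. Ccnd1 alone gave 449, 1764, 2467 and 3361 CPM of these sums in the same order. In LECs the ratio was above 0 for only 11 of the 34 genes, although the sum was higher in OE-LECs. The replication helicase subunits Mcm2 to Mcm7 had D from 0.53 to 0.75, and the mitotic kinases Plk1 and Aurkb had D of 1.11 and 1.10.

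The D-type cyclins had D of both signs. Ccnd1, on chromosome 7 from 144929931 to 144939925, had 7472 and 21898 reads in the BEC libraries and 64396 and 104232 in the LEC libraries, log2 ratios of 1.97 and 0.45, and a D of 1.53 (interval 1.48 to 1.57). Ccnd2 had 1436, 587, 598 and 1516 reads in the same order, and was called down with a D of −1.92 (interval −2.11 to −1.73). For Ccnd3 D was −0.33.

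Sterol and fatty acid synthesis genes, the targets of SREBP, had D above 0 for 21 of 23 genes and a median D of 0.66. In this list the larger ratio was that of LECs, with a median log2 ratio of −0.61 there and 0.08 in BECs. Cont LECs were above Cont BECs for 22 of the 23. Idi1, an isomerase of the mevalonate pathway, had 223 and 232 reads in the BEC libraries and 684 and 459 in the LEC libraries (D 1.23). Fdps, which makes farnesyl diphosphate, had a D of 1.14. The fatty acid genes Acly and Fasn had log2 ratios of about the same size in both lines and D of −0.01 and 0.05.

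**Figure D3:**
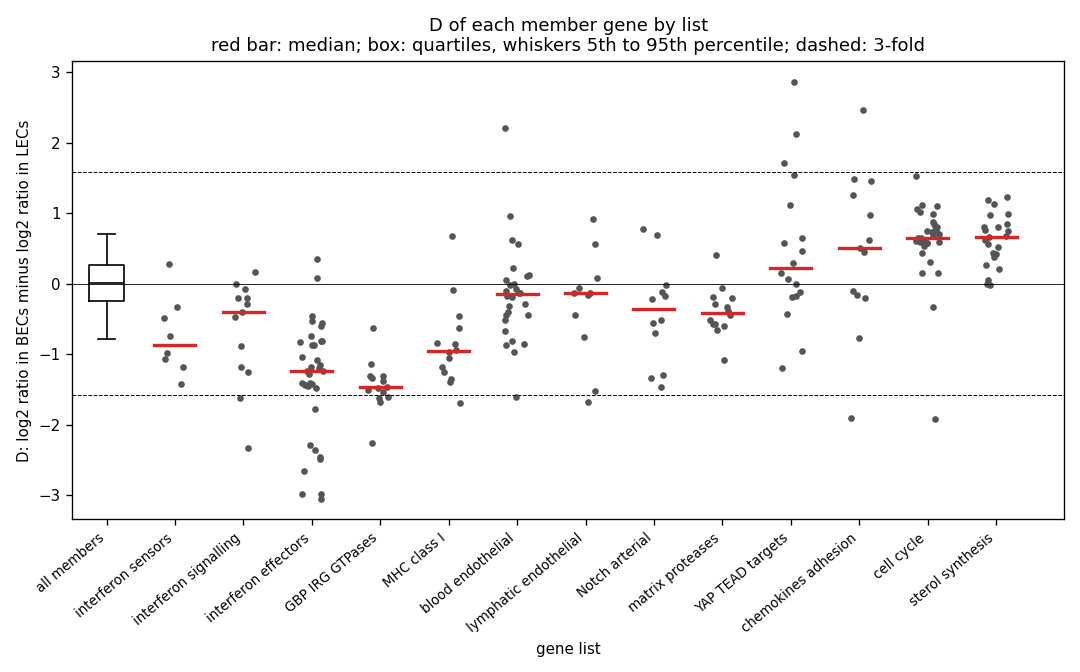
D of each gene with enough reads in 13 lists (points, with the median as a red bar) beside the box of all 11024 genes, on the log2 scale. Points of the interferon, GTPase and MHC class I lists lie almost all below 0, and those of the cell cycle and sterol synthesis lists almost all above 0.

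Of 28 blood endothelial genes 19 were lower in both OE libraries, against 30.6% of all genes. The list had a median D of −0.15, with 20 of 28 below 0 and 1 called in each direction (Apln up, Mmrn2 down), where 0.209% of all genes were called up and 0.726% down. Mmrn2, a matrix protein of endothelium, had 472, 105, 69 and 80 reads and a D of −1.61. The VEGF receptor Flt1 was lower in both, with log2 ratios of −2.08 and −1.12 and a D of −0.97, whereas Kdr, VEGF receptor 2, had a D of −0.40. The angiopoietin receptor Tek and its relative Tie1 had D of −0.85 and −0.87. The junction gene Cdh5 had 58965 and 26691 reads in the BEC libraries and 50837 and 58415 in the LEC libraries, with a D of −0.67. Cd34, Lyl1 and Gata2 had D of 0.62, 0.96 and 0.56.

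Of 19 lymphatic genes, 11 had enough reads, with a median D of −0.13 and 8 below 0. Stab2, a scavenger receptor for hyaluronan, had 145 (Cont) and 9.18 CPM (OE) in BECs and 9.27 (Cont) and 1.29 CPM (OE) in LECs. It was lower in both OE libraries, and more so in BECs (D −1.68, interval −2.08 to −1.29). Itga9, the integrin of lymphatic valves, was lower in OE-BECs with log2 ratios of −1.70 and −0.18, and Flt4, VEGF receptor 3, had a D of −0.76. Lyve1 went the other way, with a D of 0.92 (interval 0.88 to 0.96), as it was higher in OE-BECs and nearly level in LECs. Notch and arterial genes had D below 0 for 10 of 12, among them Efnb2, the arterial ephrin, with a D of −1.47 and log2 ratios of −1.13 and 0.34. The ligand Dll1 had a D of −1.34, and the receptor Notch2 one of 0.70. Matrix proteases and their inhibitors had D below 0 for 13 of 14 and a median of −0.41, led by Adamts5 at −1.09.

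Among the other lists, the median D was −0.02 for 22 genes of the DOT1L and elongation complexes, in which Aff3 was highest at 0.95 and Aff4 lowest at −0.58. It was 0.02 for 28 ERK feedback genes, −0.05 for p53 targets, 0.12 for glycolysis, 0.07 for collagens and 0.05 for 76 ribosomal protein genes, against 0.01 for all genes. With Rn45s kept in the totals it was −0.0325 for ribosomal proteins, −0.0545 for ERK feedback genes and −0.0104 for collagens, so the direction of these 3 medians depends on the scaling. The medians further from that of all genes were −0.43 over 12 potassium channels, −0.30 over 16 genes of VEGF, Tie and apelin signalling, −0.21 over 11 NF-kB feedback genes, 0.29 for heat shock and 0.25 for unfolded protein response genes. For 168 solute carriers the median was −0.04. With no minimum of reads, that of potassium channels was 0.0542. Small RNA genes, most of which had too few reads, had a median of 0.42 over 32, and 771 of the 1290 in the table had 0 reads in all 4 libraries. Lars2 and Mir6236, which can take up ribosomal RNA reads, were higher in OE-LECs with D of −1.87 and −1.78. The lists were chosen with earlier results of these data known, so their medians describe these libraries only.

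**Figure D4:**
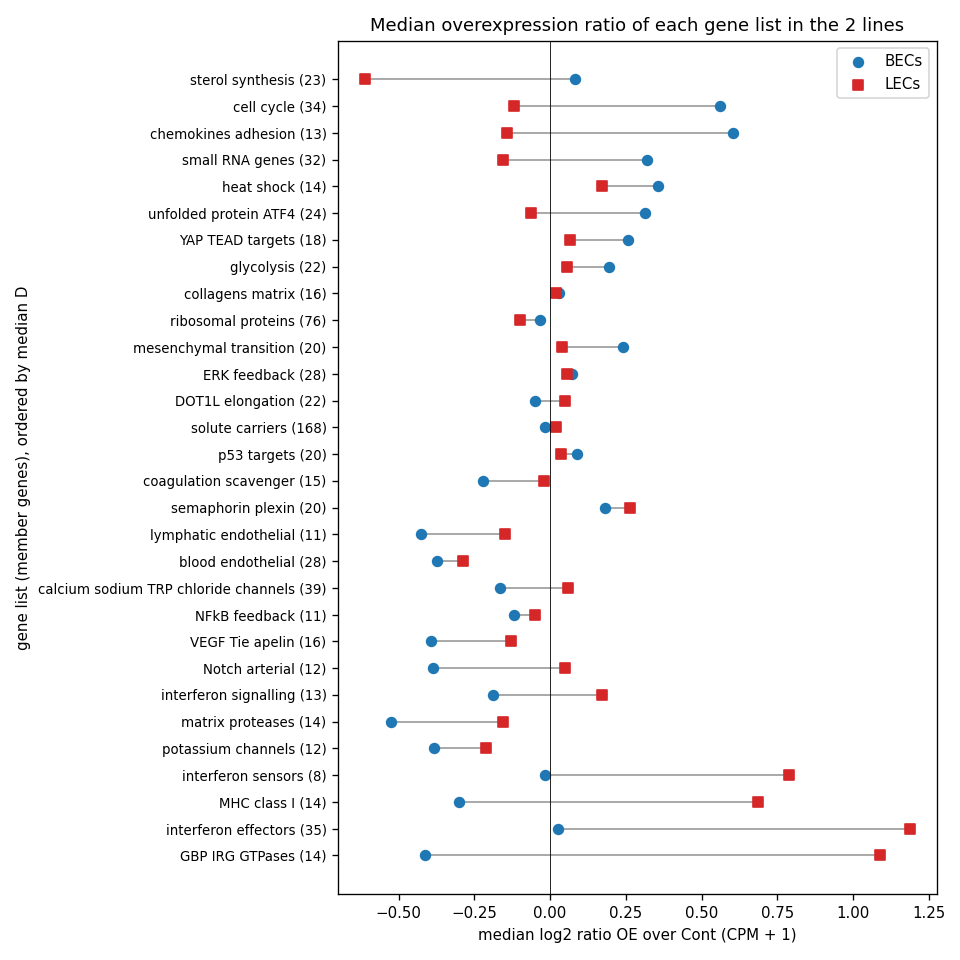
Median log2 ratio of OE over Cont in BECs (blue circles) and LECs (red squares) for the 30 lists with at least 6 genes with enough reads, ordered by median D (number of genes in parentheses). In the lowest 4 lists the LEC median is far to the right of the BEC median, and for sterol synthesis, cell cycle and chemokines it is to the left.

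D is also the change in the gap between the lines, that is the log2 ratio of OE-BECs over OE-LECs minus that of Cont BECs over Cont LECs. The 2 Cont libraries enter both gap and D, so the values are given side by side without a correlation. Among the 23 genes with high D the median gap was −1.88 between the Cont libraries and 0.33 between the OE libraries. Among the 80 genes with low D it was 1.71 between the Cont libraries and −0.25 between the OE libraries. Cont BECs were above Cont LECs in 1 of the 23 and 75 of the 80, against 43.6% of all genes. Both sets were selected by D, so a change in the gap was fixed in advance. Whether the lines grew closer under OE was not tested. Over all genes the standard deviation of the gap was 0.736 between Cont libraries and 0.651 between OE libraries.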

How the data were processed

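RNA-seq libraries were made by the authors from total RNA with ScriptSeq v2, and reads were aligned with STAR to mm10, per the labels. They were trimmed with skewer and counted per gene with VERSE and its -S option, per the study's methods. The deposited table holds raw counts of reads per gene for 24421 symbols. The gene annotation behind the counting, and whether strand was used, are not given in the sources used here. The 4 cultured libraries of 6 were used, 1 per group, with 12416781 to 31012849 reads outside Rn45s. CPM, log2 ratios with 1 CPM added and D were computed with Python 3.11.15, numpy 2.4.6, scipy 1.17.1 and pandas 2.3.3. Exact Poisson 95% limits of the 4 counts were combined by the square-and-add method. The PCR reads carry no molecular identifiers, so intervals and floors (3 reads) cover counting error only. The recovery of D and the coverage of its interval were checked on simulated counts with changes in the BEC pair. The other steps were not checked in this way.

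With 1 library per group no edgeR or DESeq2 test of D could be fitted, since a model with D leaves no residual degrees of freedom. OE against Cont with the line as a block was not tested, as such a fit takes D itself as its residual. Their scaling factors (edgeR 4.0.16 and DESeq2 1.42.0 in R 4.3.3) were alternatives, with other pseudocounts, minimums, thresholds and assumed variation. Positions came from GENCODE M21, which matched 10629 of 11024 genes, and promoters from RefSeq.

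The comparison, the lists and the genes were chosen with earlier results of these data known. Genes were named as Dot1l, the 15 highest and 15 lowest D with an interval off 0 and at least 100 reads in the higher library, up to 10 genes at least 2-fold in opposite directions in the lines with at least 100 reads in the higher library of each, the 3 with the largest absolute D in each list (5 for interferon and endothelial lists), and the endothelial list members. Other named genes were chosen after their values were seen. Some genes that this rule or the lists name are not reported here.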

Additional observations from a re-analysis of the deposited data

Results flagged for a closer look

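For 38 genes, 10 with D up and 28 with D down, the ratio was on opposite sides of 0 in the lines, with both counting intervals off 0 and D 3-fold or more. The 16 of them that the rule for named genes picked are given here. With 1 library per group the difference was not tested. Among the genes higher in OE-BECs and lower in OE-LECs, D was 2.47 for Cxcl12, 2.21 for Apln, 2.12 for Cyr61, 2.03 for Ddah1, 1.84 for Slco4a1 and 1.76 for Adm. Lower in OE-BECs and higher in OE-LECs were the secreted proteins Dkk2 (−4.64) and Fbln2 (−4.05), the cyclin Ccnd2 (−1.92), the alarmin Il33 (−1.91), and the interferon stimulated genes Ifit1 (−2.99), Ifi27l2a (−2.99), Gbp6 (−2.26), H2-T23 (−1.70), Irgm1 (−1.63) and Igtp (−1.61).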

How the results depend on the processing

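The 23 genes with D 3-fold or more up became 54 with a pseudocount of 0.1 CPM, 10 with 5 CPM, 35 with no minimum of reads, 170 at 2-fold, and 3 when an assumed biological variation of 0.4 also had to be exceeded. The 80 genes down became 40 with 5 CPM, 310 at 2-fold and 22 with that variation. Under the other scalings (TMM, median of ratios, Rn45s kept, centring), 20 to 23 of the 23 and all 80 remained called. The median D over all member genes was −0.00849 with TMM, −0.00555 with median of ratios over 4 libraries, −0.0427 with median of ratios per pair, −0.0627 with Rn45s kept and 0.0276 with no minimum. Among list medians, 10 values in 6 lists had another sign. That of ribosomal proteins turned to −0.0117 with median of ratios per pair and −0.0325 with Rn45s kept, and the others, all within the limits of their medians, were those of ERK feedback, mesenchymal transition and collagens under 1 or both of these scalings and of potassium channels and solute carriers with a lower or no minimum. Rn45s kept also gave 0.57 for cell cycle genes and −0.12 for solute carriers, median of ratios per pair gave 0.59 for cell cycle genes, 5 CPM gave −1.22 for the GTPases, and no minimum gave 0.0542 for small RNA genes. At 2-fold, 37 genes were higher and 59 lower in both OE libraries, and 2 were lower in OE-BECs and higher in OE-LECs. Of 1085 values of D for 155 named genes, 83 moved beyond their counting interval. Among the named genes with D 3-fold or more, 0 values changed sign, and sign changes of the rest were not counted. No paired analysis was possible because each group has 1 library, the labels carry no replicate numbers and D takes up every degree of freedom. Depth limits D most in the 2756 genes with the fewest reads, where the limits lie a median of 0.457 from D.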
